A study of Mus musculus with 48 samples.

Results

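The genes described here are 10 well-known targets of the transcription factor p53: Cdkn1a, Mdm2, Ccng1, Trp53inp1, Sesn2, Zmat3, Phlda3, Eda2r, Bax and Pmaip1. They were chosen by symbol, with earlier results of these data known, and were found through their Ensembl identifiers and the GENCODE mouse annotation. All 10 were present among the 55335 genes of the deposited RNA-seq and Ribo-seq tables, and all 10 passed the limit on low values in every test. The study asked what the nuclear proteins NRDE2, MTREX and CCDC174 do in pre-mRNA splicing and nuclear RNA surveillance. The comparisons below ask how each of the 10 genes differed when one of these proteins was lost or altered, and how each responded to cycloheximide (CHX), a drug that blocks the elongation step of translation.

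All libraries came from male mouse embryonic stem cells (mESCs) of a hybrid 129-C57BL/6 background that carry a tamoxifen-activated Cre recombinase and grow in serum with LIF and inhibitors that hold the pluripotent state. In Nrde2-KO cells, floxed Nrde2 was deleted with 4-hydroxytamoxifen (4OHT) at 100 nM for 4 d. In Mtrex-KO cells, floxed Mtrex was deleted with 100 nM for 3 d. The WT groups of these lines were untreated cells of the same conditional lines. Nrde2Δ200 (Nrde2d200 in the labels) cells carry NRDE2 without its N-terminal part and Nrde2-D174R cells carry a point mutation, and both were untreated. In Ccdc174-dTAG cells, CCDC174 fused to the FKBP12F36V degron was degraded with dTAG-13 at 500 nM for 24 h, and the matching WT group was the untreated fusion line. A second Nrde2-KO experiment and the Ccdc174-dTAG experiment were also run with CHX at 0.1 mg/ml for 4 h. Each group had 2 libraries, which gave 28 RNA-seq libraries in 14 groups. The 4 Ribo-seq libraries were of WT and Nrde2-KO cells. The labels give 4 d of 4OHT for the knockout, and the study's methods give 3 d followed by a night on a new dish. Nrde2-KO, Nrde2Δ200 and Nrde2-D174R of the first experiment share 1 pair of WT libraries. An effect of 4OHT with active Cre cannot be told apart from loss of the gene, nor an effect of dTAG-13 from loss of CCDC174. The lines were edited and picked as clones, the sources list the degron line as also carrying tagged, floxed Nrde2, and nothing states that the 2 libraries of a group were separate cultures, so the p-values measure the spread between libraries, which may be technical.

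p53, encoded by Trp53, is held at a low level by the ubiquitin ligase MDM2 and is stabilised by DNA damage, ribosome stress and other insults. It binds as a tetramer to a response element made of repeated 10-base units and activates genes for cell-cycle arrest, for feedback on itself, for metabolic control and for death. Many of its targets give short-lived mRNAs, and mESCs are known for a p53 that is abundant yet weakly coupled to cell-cycle arrest.

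The response elements near these genes are shown first, because they are the sequence feature that the list was expected to share and that the measurements did not use. The window from 3000 bases before to 3000 bases after each annotated start was read from GRCm38, the assembly that mm10 names, and searched for the p53 consensus decamer, a palindrome that reads alike on both strands. The start was the outermost 5′ end of the annotated gene, which need not be the start of its main transcript. A perfect joined pair of decamers, with no base between them, was found for 1 of the 10 genes, Zmat3, against 0.136% of 55117 genes on the chromosomes. A single decamer was found for 10 of 10 (median of 4), but 85.9% of all genes had one (median of 2). With up to 2 letters of the joined pair allowed to differ, a search chosen after the exact one had been seen, 7 of 10 genes had a match, against 18.0% of all genes. A match is a description of letters and not a site shown to be bound. The best match of each gene is printed below in the direction of the gene, with letters that match the consensus in capitals and those that differ in lower case.
Zmat3, chr3:32364331-32364350, 1664 bases downstream of the start in a non-coding exon: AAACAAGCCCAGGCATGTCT
Cdkn1a, chr17:29090928-29090947, 48 bases upstream: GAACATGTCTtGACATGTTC
Mdm2, chr10:117711670-117711689, 931 bases upstream: GGGCAAtTCCGGGCAAGTCC
Ccng1, chr11:40755462-40755481, 170 bases upstream: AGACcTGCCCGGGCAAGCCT
Ccng1, chr11:40754936-40754955, 356 bases downstream in an intron: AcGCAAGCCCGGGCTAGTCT
Eda2r, chrX:97376691-97376710, 506 bases downstream in an intron: GAAtATGCCCGGACTTGTCC
Bax, chr7:45466574-45466593, 305 bases downstream in a non-coding exon: GGGCAgGCCCGGGCTTGTCg
The match of Pmaip1 lay 103 bases upstream and had 2 differing letters. No joined pair with up to 2 differing letters was found in this window for Trp53inp1, Sesn2 or Phlda3. In the shorter RefSeq promoter windows (GRCm38), 7 of the 10 genes were matched by symbol and 4 of these 7 held a decamer, against 9.55% of 27025 genes, and Trp53inp1, Zmat3 and Pmaip1 were not matched.

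**Figure D1:**
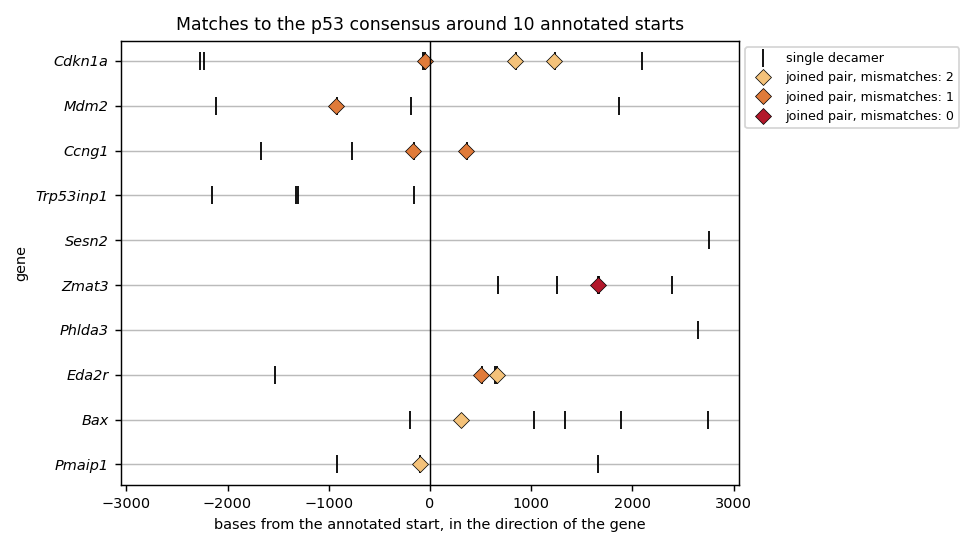
Positions of matches to the p53 consensus along the window from 3000 bases before to 3000 after each annotated start, on a scale of bases in the direction of the gene. Ticks are single decamers and diamonds are joined pairs, coloured by the number of letters that differ. Only Zmat3 holds a pair with no differing letter, and Trp53inp1, Sesn2 and Phlda3 hold no diamond.

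The RNA-seq libraries held 28683644 to 36272309 reads in genes and the Ribo-seq libraries 3475051 to 5035940. The fewest reads behind a value below were 374 (Cdkn1a) in RNA-seq and 77 (Pmaip1) in Ribo-seq. Levels are normalised CPM, that is, reads relative to the total of the library (CPM), divided by a scaling factor per library. Nrde2 itself was at 19.7 CPM in Nrde2-KO against 40.8 in WT, at 19.7 against 52.6 in the second experiment, and at 2.78 against 13.2 in Ribo-seq. With CHX the count over the whole Nrde2 gene was 253 in Nrde2-KO against 233 in WT, so it does not check these labels (the exons that Cre removes were not counted apart), whereas the summed level of 7 markers of the 2-cell-like state was 51.5 to 57.4 against 4.76 to 5.09. Mtrex was at 43.7 in Mtrex-KO against 115 in WT. Ccdc174 mRNA (36.6 against 28.2) does not check its label, since dTAG-13 degrades the protein only. The 8 markers of pluripotent cells were detected in every group and fibroblast markers summed to at most 4.01 CPM in RNA-seq. The 2 Mtrex-KO libraries had scaling factors of 0.685 and 0.833 against 0.926 to 1.15 in the others. In the Mtrex WT group 8 of the 10 genes were higher in replicate 1, and in the WT group of the first Nrde2 experiment 9 were. The median fold between replicates over all 10 genes was 1.38 in Mtrex WT and 1.19 in that Nrde2 WT group. In a bulk library, fewer cells that make an RNA and less of it per cell cannot be told apart.

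Most of the 10 genes rose in Mtrex-KO, and a smaller set rose by smaller amounts in Nrde2-KO. No gene rose in the Nrde2 mutants or in Ccdc174-dTAG without CHX at the test used (limma, adjusted p below 0.01 over all genes of a fit). In Mtrex-KO, 8 of 10 rose and 0 fell, where 28.5% of 14889 genes rose and 27.4% fell. The 8 were all but Cdkn1a and Bax, with rises from 1.12 (Sesn2) to 2.76 (Mdm2) on the log2 scale. In Nrde2-KO, 6 of 10 rose and 0 fell, where 7.64% of genes rose and 10.6% fell. The 6 were Trp53inp1, Mdm2, Pmaip1, Ccng1, Phlda3 and Sesn2. In the second Nrde2-KO experiment, 4 of 10 rose and 0 fell (Trp53inp1, Ccng1, Pmaip1 and Eda2r), where 7.44% of genes rose and 11.3% fell. Trp53inp1, Ccng1 and Pmaip1 thus rose in both experiments.

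For the 10 genes the median on the log2 scale was 1.75 in Mtrex-KO, 0.68 in Nrde2-KO and 0.40 in the second experiment, beside medians over all genes of −0.0017, 0.0047 and 0.0056. The calls of the first Nrde2-KO experiment rested partly on single libraries, since without replicate 2 of WT or of Nrde2-KO 3 genes rose. In the second experiment 2 rose without either WT library or without replicate 2 of Nrde2-KO. With CPM as deposited in place of scaled CPM, the share of called genes that were higher moved from 41.9 to 55.6% in Nrde2-KO and from 51.0 to 27.5% in Mtrex-KO, where the median of all genes moved to −0.38, and 6 and 8 of the 10 genes still rose.

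In Nrde2Δ200, 0 of 10 rose and 1 fell (Eda2r), where 3.22% of genes rose and 4.27% fell. Its median over the 10 genes was 0.32 and 6 of them had an unadjusted p below 0.05. edgeR called 1. DESeq2 called 3, of which 2 were rises (Ccng1 and Trp53inp1), and with the compared libraries alone 5 were called, of which 4 were rises (Mdm2, Ccng1, Trp53inp1 and Phlda3). On CPM as deposited, where the share of higher genes moved from 43.0 to 57.3%, the count was 0. In Nrde2-D174R, 0 rose and 0 fell by limma, where 0.262% of genes rose and 0.134% fell. There the median was 0.34, 5 had an unadjusted p below 0.05, and edgeR and DESeq2 called 0, while with the compared libraries alone 1 was called (Sesn2, a rise). In Ccdc174-dTAG, 0 rose and 0 fell by limma, where 1.14% of genes rose and 4.45% fell. The median was 0.063, 1 gene had an unadjusted p below 0.05, and edgeR and DESeq2 called 0. A p that misses the threshold does not show equal levels, and the standard errors in these fits were 0.12 to 0.23 on the log2 scale.

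**Figure D2:**
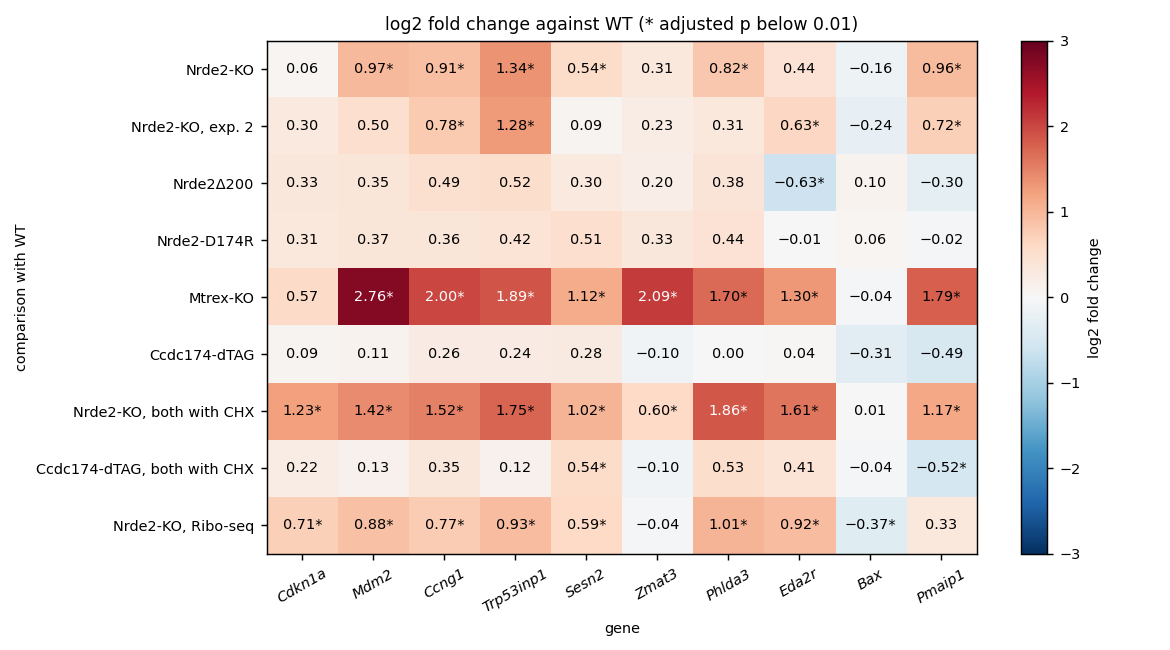
Log2 fold change of each gene (columns) in each comparison with WT (rows), coloured from blue (lower) to red (higher), with an asterisk where the adjusted p was below 0.01. The Mtrex-KO row and the row of Nrde2-KO with CHX hold the highest values, and the Bax column stays between −0.37 and 0.10.

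The cell-cycle genes come first. Cdkn1a (ENSMUSG00000023067, chr17:29090976-29100727, plus strand) encodes p21, the inhibitor of cyclin-dependent kinases that carries much of the p53-dependent arrest. In WT cells without CHX it ranged from 53.3 to 104 CPM. It was at 96.7 and 74.4 CPM in the WT libraries of the first experiment and at 94.4 and 82.3 in Nrde2-KO, so the groups overlapped, and the log2 fold change was 0.06 (SE 0.22, adjusted p = 0.88). The second experiment had 77.7 and 53.3 CPM in WT and 86.2 and 72.7 in Nrde2-KO, again overlapping, with 0.30 (SE 0.22, adjusted p = 0.34). Of the genes that respond to p53, the one best known for arrest was therefore among those that did not pass the test in either experiment. Nrde2Δ200 held 99.2 and 115 CPM and Nrde2-D174R 110 and 99.8, all above both WT libraries, with adjusted p of 0.35 and 0.50. Mtrex-KO held 145 and 94.5 CPM against 104 and 59.6 in its WT. In each of these groups replicate 1 was the higher, and the log2 fold change of 0.57 (SE 0.22, adjusted p = 0.033) became 0.97 (adjusted p = 0.0016) without WT replicate 1 and 0.88 (adjusted p = 0.0043) without Mtrex-KO replicate 2, within a range of 0.00019 to 0.53 over 13 alternatives. Ccdc174-dTAG held 74.9 and 76.5 CPM and its WT 71.1 and 71.3.

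With CHX, Cdkn1a fell in all 4 states. It stood at 17.9 and 13.3 CPM in the WT of the second experiment with CHX, which is 23.9% of the mean without it (log2 fold change −2.04, SE 0.17, adjusted p = 1.3e-07). In Nrde2-KO with CHX it was at 41.2 and 32.4 CPM, 46.4% of the level without CHX (−1.11, adjusted p = 4.5e-05). With CHX the Nrde2-KO libraries thus lay clear of the WT ones, a rise of 1.23 (SE 0.15, adjusted p = 0.0001). In the Ccdc174 line it fell to 8.33 and 8.97 CPM in WT (12.2%, −3.01) and to 10.9 and 9.45 in Ccdc174-dTAG (13.4%, −2.87), and the difference between the CHX effects of the 2 WT states, 0.97, did not pass the test (adjusted p = 0.26). These were the lowest values of Cdkn1a in the series, and the mean of Ccdc174 WT with CHX lay 13.9-fold under that of Mtrex-KO. Of the 13 neighbouring pairs of groups in the order of the mean level of Cdkn1a, 6 did not overlap. For the other genes of the list this count was 2 (Bax) to 8 (Ccng1), and the share over all genes was not counted.

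Ccng1 (ENSMUSG00000020326, chr11:40748552-40755311, minus strand) encodes cyclin G1, which recruits a phosphatase to MDM2. Per kilobase of exon it was the highest of the 10 genes in WT cells without CHX, at a mean of 122 CPM per kilobase. The WT libraries of the first experiment held 375 and 316 CPM and Nrde2-KO 664 and 630, with no overlap and a rise of 0.91 (SE 0.12, adjusted p = 3.4e-05). The second experiment held 427 and 383 CPM in WT and 690 and 696 in Nrde2-KO, a rise of 0.78 (SE 0.12, adjusted p = 0.00015). Both Nrde2Δ200 libraries were at 483 CPM, above WT, with 0.49 (adjusted p = 0.012), which passed in DESeq2 (0.0016) and with the compared libraries alone (0.00063; range 0.00063 to 0.15 over 13 alternatives), and Nrde2-D174R was at 475 and 409, with 0.36 (adjusted p = 0.15). Mtrex-KO reached 1197 and 1473 CPM from 378 and 292 in its WT, a rise of 2.00 (SE 0.12, adjusted p = 3.6e-10). The Ccdc174 WT line already had 648 and 602 CPM, more than any other WT group, and Ccdc174-dTAG had 748 and 746 (0.26, adjusted p = 0.2). With CHX, Ccng1 fell in all 4 states. It fell to 151 and 118 CPM in Nrde2 WT, 33.3% of the level without CHX, to 437 and 336 in Nrde2-KO (55.8%), to 198 and 220 in Ccdc174 WT (33.4%) and to 254 and 278 in Ccdc174-dTAG (35.6%). Nrde2-KO with CHX was higher than WT with CHX by 1.52 (SE 0.13, adjusted p = 1.1e-05).

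Mdm2 (ENSMUSG00000020184, chr10:117688875-117710758, minus strand) is the feedback arm, the ubiquitin ligase that p53 induces and that sends p53 to degradation. It had 133 and 112 CPM in WT and 248 and 230 in Nrde2-KO, with no overlap and a rise of 0.97 (SE 0.15, adjusted p = 0.00017). In the second experiment WT had 212 and 172 CPM, higher than the WT of the first, and Nrde2-KO 268 and 271. The groups did not overlap, but 0.50 (SE 0.15, adjusted p = 0.022) missed the threshold, which it passed in DESeq2 (adjusted p = 0.0086) and with the compared libraries alone (0.0045), within 0.0014 to 0.21 over 13 alternatives. Mdm2 made the largest rise of the 10 genes in Mtrex-KO, to 910 and 788 CPM from 157 and 98.7, which is 2.76 (SE 0.15, adjusted p = 1.3e-10). Nrde2Δ200 had 149 and 163 CPM, Nrde2-D174R 166 and 150, Ccdc174 WT 209 and 197 and Ccdc174-dTAG 222 and 216, with adjusted p of 0.13, 0.22 and 0.72 for the 3 comparisons, the first of which passed with the compared libraries alone (0.0075; range 0.0075 to 0.53). CHX brought Mdm2 to 102 and 87.2 CPM in Nrde2 WT, 49.2% of the level without it (−1.02, SE 0.13, adjusted p = 1.3e-05), and in the same way to 93.9 and 109 in Ccdc174 WT (50.1%) and to 106 and 117 in Ccdc174-dTAG (50.8%). In Nrde2-KO it was at 298 and 213 CPM with CHX, on both sides of the 268 and 271 without it, and no fall passed the test (−0.10, SE 0.13, adjusted p = 0.54). With CHX, Mdm2 in Nrde2-KO was therefore higher than in WT by 1.42 (SE 0.13, adjusted p = 2.2e-05).

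Trp53inp1 (ENSMUSG00000028211, chr4:11156431-11174379, plus strand) encodes a stress protein of the nucleus and autophagosome that promotes p53 activity. It showed the largest rise of the 10 genes in both Nrde2-KO experiments without CHX. The first held 381 and 335 CPM in WT and 922 and 885 in Nrde2-KO, a rise of 1.34 (SE 0.15, adjusted p = 5.7e-06). The second held 292 and 281 CPM in WT and 662 and 733 in Nrde2-KO, a rise of 1.28 (SE 0.15, adjusted p = 7.8e-06). Both rises were far outside the spread of their libraries and passed the test in all 13 alternatives. Nrde2Δ200 had 516 and 506 CPM and Nrde2-D174R 514 and 441, above both WT libraries, with 0.52 (adjusted p = 0.027) and 0.42 (adjusted p = 0.17). The first of these passed in DESeq2 (0.0066) and with the compared libraries alone (0.00026), within 0.00026 to 0.2 over 13 alternatives. Mtrex-KO had 1289 and 1397 CPM against 461 and 285 in its WT, a rise of 1.89 (SE 0.15, adjusted p = 8.9e-09). Ccdc174-dTAG had 427 and 496 CPM against 384 and 396 (adjusted p = 0.35). CHX took Trp53inp1 to 166 and 126 CPM in Nrde2 WT (51.0%), 195 and 227 in the WT of Ccdc174 (54.0%) and 210 and 249 in Ccdc174-dTAG (49.6%), all falls. In Nrde2-KO with CHX it had 551 and 428 CPM, or 70.2% (−0.52, SE 0.14, adjusted p = 0.0041). That fall missed the threshold without replicate 2 of either Nrde2-KO group, with no filter on low values and with CPM as deposited, within 0.00011 to 0.078 over 13 alternatives. Nrde2-KO with CHX was above WT with CHX by 1.75 (SE 0.14, adjusted p = 9.1e-06).

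Sesn2, Zmat3 and Phlda3 act on metabolism, RNA and growth signalling. Sesn2 (ENSMUSG00000028893, chr4:132492032-132510501, minus strand) encodes sestrin 2, which lowers mTORC1 activity, and is also induced by ATF4. WT held 70.9 and 67.0 CPM and Nrde2-KO 106 and 95.1, a rise of 0.54 (SE 0.14, adjusted p = 0.0066) that missed the threshold without any one of the 4 libraries and with no filter on low values (0.00012 to 0.073 over 13 alternatives). The second experiment held 107 and 98.2 CPM in WT and 117 and 101 in Nrde2-KO, which overlap (0.09, adjusted p = 0.67). Nrde2Δ200 held 80.5 and 89.7 CPM (adjusted p = 0.15) and Nrde2-D174R 99.7 and 97.3 (0.51, adjusted p = 0.069), which passed with the compared libraries alone (0.0051; range 0.0023 to 0.37 over 13 alternatives). In Mtrex-KO it rose by 1.12 (SE 0.14, adjusted p = 1.5e-06), to 198 and 170 CPM from 98.3 and 72.4. Ccdc174-dTAG had 145 and 112 CPM against 110 and 99.3 (adjusted p = 0.21). With CHX, however, Sesn2 was 1 of the 2 genes that differed in Ccdc174-dTAG, at 57.4 and 61.7 CPM against 40.6 and 41.0 in WT, a rise of 0.54 (SE 0.11, adjusted p = 0.0078). That rise also missed the threshold without any one of the 4 libraries and with no filter on low values (2.1e-06 to 0.07 over 13 alternatives). CHX lowered Sesn2 to 38.8 and 35.4 CPM in Nrde2 WT (36.2%), to 39.0% in Ccdc174 WT, to 46.5% in Ccdc174-dTAG and, to 88.1 and 64.9 CPM, in Nrde2-KO (70.1%, −0.52, adjusted p = 0.0034). The fall in Nrde2-KO missed the threshold without replicate 1 of the untreated or replicate 2 of the CHX libraries, with no filter and with CPM as deposited (8.8e-05 to 0.077). With CHX, Nrde2-KO was higher than WT by 1.02 (SE 0.11, adjusted p = 6.1e-05).

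Zmat3 (ENSMUSG00000027663, chr3:32334792-32366014, minus strand) encodes a zinc finger protein that binds RNA and affects splicing. Per kilobase of exon it was the lowest of the 10 in WT cells, at a mean of 5.45 CPM per kilobase, and it had the widest range over groups, 24.0-fold. WT held 77.6 and 62.7 CPM and Nrde2-KO 93.6 and 80.5, which do not overlap, yet 0.31 (SE 0.23, adjusted p = 0.32) did not pass the test. The second experiment held 60.2 and 61.9 CPM in WT and 61.1 and 83.7 in Nrde2-KO (0.23, adjusted p = 0.48), and Nrde2Δ200 held 77.9 and 82.7 (adjusted p = 0.60) and Nrde2-D174R 94.8 and 81.4 (adjusted p = 0.46). In Mtrex-KO the 2 libraries were far apart, at 424 and 219 CPM, and both were far above the 85.1 and 59.9 of WT, a rise of 2.09 (SE 0.23, adjusted p = 3.3e-07). Ccdc174-dTAG had 41.1 and 43.3 CPM and its WT 49.4 and 41.1 (adjusted p = 0.85). CHX lowered it in all 4 states, to 17.2 and 18.0 CPM in Nrde2 WT (28.8%), 28.1 and 25.3 in Nrde2-KO (36.9%), 14.5 and 14.2 in the WT of Ccdc174 (31.7%) and 13.5 and 13.3 after dTAG-13 (31.7%). With CHX, Nrde2-KO was above WT by 0.60 (SE 0.08, adjusted p = 0.00022), the smallest of the 9 rises in that comparison.

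Phlda3 (ENSMUSG00000041801, chr1:135766119-135769136, plus strand) encodes a small pleckstrin homology protein that competes with AKT at the membrane. It was at 39.0 and 33.5 CPM in WT and at 62.1 and 65.8 in Nrde2-KO, a rise of 0.82 (SE 0.16, adjusted p = 0.0011) that missed the threshold without WT replicate 2 or Nrde2-KO replicate 2 (1.3e-05 to 0.02 over 13 alternatives). In the second experiment WT had 70.7 and 69.0 CPM, about the level that Nrde2-KO had in the first, and Nrde2-KO had 103 and 73.0 (0.31, adjusted p = 0.16). Nrde2Δ200 had 46.4 and 47.8 CPM (adjusted p = 0.12, or 0.0076 with the compared libraries alone, within 0.0076 to 0.48) and Nrde2-D174R 51.9 and 46.4 (adjusted p = 0.18), above both WT libraries. Mtrex-KO had 170 and 175 CPM and its WT 62.5 and 44.8, a rise of 1.70 (SE 0.16, adjusted p = 7e-08). Ccdc174-dTAG had 69.1 and 50.6 CPM around the 58.5 and 59.5 of WT. CHX took Phlda3 to 20.4 and 13.3 CPM in Nrde2 WT (24.1%, −2.07, SE 0.21), 14.7 and 18.1 in the WT of Ccdc174 (27.8%) and 23.4 and 23.9 in Ccdc174-dTAG (39.5%), all past the test. In Nrde2-KO it was at 72.1 and 50.9 CPM, 69.9% of the level without CHX, and −0.52 (adjusted p = 0.043) did not pass. With CHX the difference between Nrde2-KO and WT was 1.86 (SE 0.19, adjusted p = 4e-05), the largest of the 10 genes there.

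The last 3 genes act in cell death. Eda2r (ENSMUSG00000034457, chrX:97333840-97377216, minus strand) encodes a receptor of the tumour necrosis factor receptor family. It had 74.4 and 60.8 CPM in WT and 91.2 and 90.9 in Nrde2-KO, with no overlap and 0.44 (SE 0.13, adjusted p = 0.018), just short of the threshold, which it passed in DESeq2 (0.0089) and with the compared libraries alone (0.003; range 0.003 to 0.21 over 13 alternatives). The second experiment showed a rise of 0.63 (SE 0.13, adjusted p = 0.0016), from 74.5 and 78.0 CPM to 109 and 128. That rise missed the threshold without either WT library or without Nrde2-KO replicate 2 (4.8e-05 to 0.033). Nrde2Δ200 went the other way, at 43.1 and 43.7 CPM, a fall of 0.63 (SE 0.13, adjusted p = 0.0037), and Eda2r was the only 1 of the 10 genes to pass the test there. The fall missed the threshold without WT replicate 1, without either Nrde2Δ200 library, with no filter and with CPM as deposited (0.00019 to 0.062). Nrde2-D174R, at 74.3 and 59.8 CPM, overlapped WT. In Mtrex-KO it rose by 1.30 (SE 0.13, adjusted p = 1.5e-07), to 156 and 178 CPM from 78.3 and 58.8. Ccdc174-dTAG had 98.7 and 102 CPM and its WT 99.4 and 96.2.

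CHX lowered Eda2r to 35.9 and 30.6 CPM in Nrde2 WT (43.6%, −1.19, SE 0.10, adjusted p = 1.9e-07), to 31.5 and 36.6 in Ccdc174 WT (34.8%) and to 43.1 and 47.2 in Ccdc174-dTAG (45.0%). The last 2 differed by 0.41 (adjusted p = 0.014), which passed in DESeq2 (0.0015; range 6.3e-06 to 0.11 over 13 alternatives). In Nrde2-KO it stayed at 108 and 95.5 CPM, 86.1% of the level without CHX (−0.21, SE 0.10, adjusted p = 0.081). With CHX, Nrde2-KO thus had 3.05-fold the level of WT, 1.61 on the log2 scale (SE 0.10, adjusted p = 1.4e-06).

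Bax (ENSMUSG00000003873, chr7:45461697-45466898, minus strand) encodes the protein that permeabilises the outer mitochondrial membrane. It shares 192 exon bases on the same strand with Gm45808, where reads could be lost from the count. Bax moved least of the 10, with a range over groups of 1.88-fold. It had 84.9 and 89.0 CPM in WT, 73.4 and 82.6 in Nrde2-KO, 88.9 and 97.6 in Nrde2Δ200 and 86.7 and 94.3 in Nrde2-D174R, with adjusted p of 0.47, 0.71 and 0.89. The second WT had 117 and 124 CPM and Nrde2-KO 116 and 90.1 (−0.24, adjusted p = 0.25). Mtrex-KO, at 90.8 and 144 CPM, lay on both sides of its WT at 116 and 119 (−0.04, SE 0.16, adjusted p = 0.82). Ccdc174-dTAG had 99.0 and 86.2 CPM against 117 and 112 (−0.31, adjusted p = 0.23). CHX lowered Bax in all 4 states, by less than most others, to 74.8 and 75.7 CPM in Nrde2 WT (62.2%), 79.3 and 72.6 in Nrde2-KO (73.7%), 68.0 and 64.3 in the WT of Ccdc174 (57.9%) and 63.6 and 65.3 in Ccdc174-dTAG (69.6%). The fall in Nrde2-KO (adjusted p = 0.0017) missed the threshold with CPM as deposited, with only the compared libraries, and without untreated replicate 1 or CHX replicate 2 (9.1e-06 to 0.038), and that in Ccdc174-dTAG (0.00036) missed it with CPM as deposited (8.3e-07 to 0.021). With CHX, Bax differed by 0.01 (SE 0.06, adjusted p = 0.88) between Nrde2-KO and WT.

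Pmaip1 (ENSMUSG00000024521, chr18:66458533-66465565, plus strand) encodes NOXA, a BH3-only protein that neutralises MCL1. It was the one gene of the 10 that no group lowered with CHX at the test used. In both Ccdc174 states its mean was lower with CHX, at 94.5 against 119 CPM in WT and 66.0 against 85.8 in Ccdc174-dTAG. Neither of these falls passed the test. Without untreated replicate 1, Pmaip1 changed with CHX by −0.67 on the log2 scale in Ccdc174-dTAG. It had 48.7 and 37.0 CPM in WT and 82.5 and 83.2 in Nrde2-KO, a rise of 0.96 (SE 0.19, adjusted p = 0.0012) that missed the threshold without WT replicate 2 or either Nrde2-KO library (7.2e-06 to 0.027 over 13 alternatives). In the second experiment WT had 93.7 and 83.0 CPM, about the level of Nrde2-KO in the first, and Nrde2-KO had 134 and 158, a rise of 0.72 (SE 0.19, adjusted p = 0.0086) lost without any one of the 4 libraries, with no filter and with CPM as deposited (0.00014 to 0.088). Nrde2Δ200 had 32.0 and 37.1 CPM and Nrde2-D174R 43.2 and 40.3, overlapping WT. In Mtrex-KO it rose by 1.79 (SE 0.19, adjusted p = 3e-07), from 98.6 and 116 CPM to 329 and 415. Its level in WT libraries without CHX varied 3.78-fold, more than that of any other of the 10 genes. Ccdc174-dTAG had 66.8 and 105 CPM against 98.5 and 140 in WT (−0.49, adjusted p = 0.11), and with CHX 62.1 and 69.8 against 88.9 and 100, a fall of 0.52 (SE 0.11, adjusted p = 0.0087). That fall was lost in DESeq2, with CPM as deposited, with no filter and without any one of the 4 libraries (1.7e-07 to 0.078). With CHX, Pmaip1 in Nrde2 WT was at 122 and 109 CPM, 131% of the level without it (0.39, SE 0.19, adjusted p = 0.091, or 0.005 with the compared libraries alone, within 0.005 to 0.3). In Nrde2-KO it reached 297 and 229 CPM, or 180%, a rise of 0.84 (SE 0.19, adjusted p = 0.0015) that missed the threshold without replicate 1 of either Nrde2-KO group and with no filter (3.3e-05 to 0.028).

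**Figure D3:**
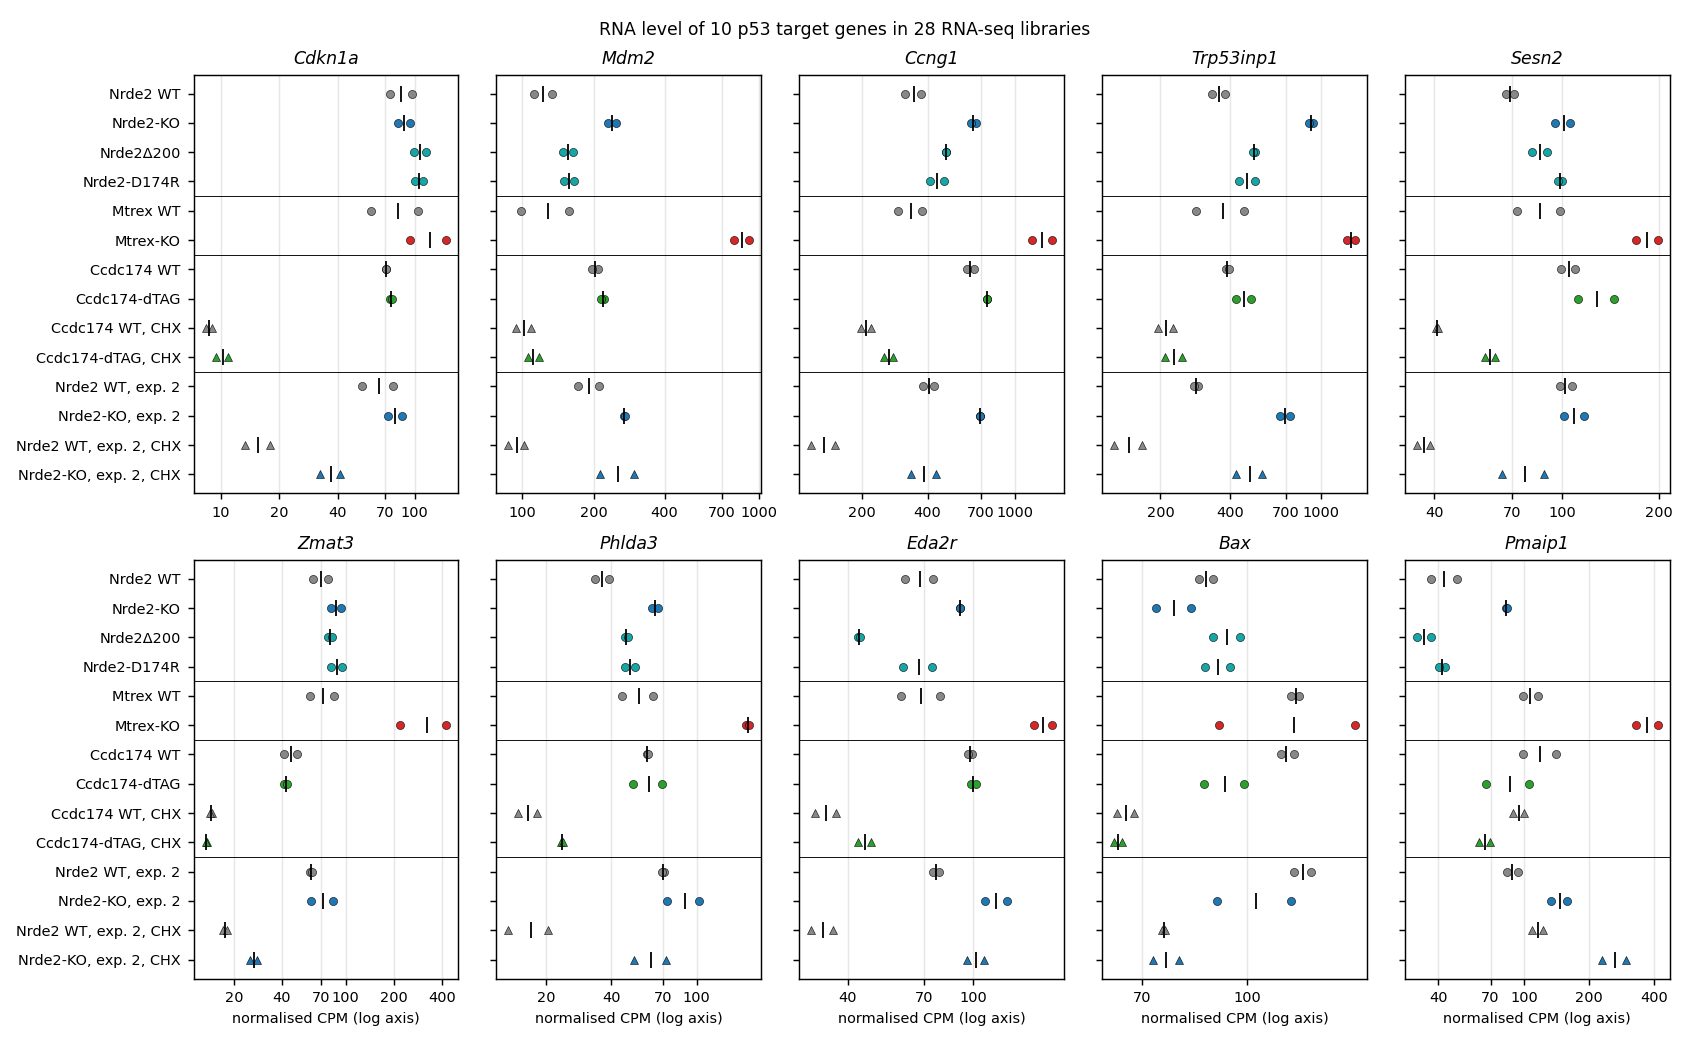
Level of each of the 10 genes in the 28 RNA-seq libraries, in normalised CPM on a log axis, 1 panel a gene and 1 row a group (2 points a group, the bar is the mean; triangles mark CHX). Mtrex-KO holds the highest mean in 9 of the 10 panels, and the lowest mean is that of a CHX group in every panel except Pmaip1.

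The effect of CHX was then compared between lines. In Nrde2 WT 0 of 10 rose and 9 fell, where 25.1% of 15133 genes rose and 22.4% fell. Ccdc174 WT also had 0 rises and 9 falls (25.4% and 24.1% of genes), as did Ccdc174-dTAG (26.3% and 24.1%), whereas Nrde2-KO had 1 rise and 6 falls (26.3% and 22.5%). The medians of the 10 genes were −1.33, −1.44, −1.12 and −0.52, beside medians of all genes from −0.008 to 0.0295. In Nrde2-KO the count of 7 became 4 without untreated replicate 1 or CHX replicate 2, with no filter, or with CPM as deposited. On CPM as deposited the share of called genes that were higher moved from 52.8 to 76.2% in Nrde2 WT, from 53.9 to 72.3% in Nrde2-KO, from 51.4 to 75.5% in Ccdc174 WT and from 52.2 to 75.6% in Ccdc174-dTAG, and the median of all genes to between 0.20 and 0.24. In the WT states the same 9 genes (all but Pmaip1) fell in both lines.

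The difference between the CHX effects themselves was tested as an interaction. Between Nrde2-KO and Nrde2 WT all 10 differences were positive, that is, CHX lowered each gene less (or raised it more) in Nrde2-KO, with a median of 0.83 beside −0.0025 over all genes. Only that of Eda2r, 0.98 (SE 0.14, adjusted p = 0.0031), passed the test, where 0.515% of genes differed in either direction. Eda2r missed it in 7 of 17 alternatives (6e-07 to 0.03), among them with only the compared libraries and without either untreated WT library. Phlda3 had the largest difference, 1.55 (SE 0.29, adjusted p = 0.014), followed among the rest by Sesn2 (0.94, adjusted p = 0.02), Cdkn1a (0.93, 0.059), Mdm2 (0.92, 0.021) and Ccng1 (0.74, 0.037). Those 5 and Eda2r passed in DESeq2, which called 6 of the 10, whereas edgeR called 1. Without replicate 2 of Nrde2-KO with CHX, Mdm2, Sesn2 and Eda2r passed, and in that group all 10 genes were higher in replicate 1, by a median of 1.29-fold.

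Between Ccdc174-dTAG and Ccdc174 WT, 0 of 10 differences passed by limma (0.251% of genes), with a median of 0.11 and 1 gene at an unadjusted p below 0.05. Between the 2 WT states, 0 of 10 passed by limma (0% of genes), with 3 at an unadjusted p below 0.05. edgeR and DESeq2 called 0 in both. For Cdkn1a the WT states differed by 0.97 (SE 0.24, adjusted p = 0.26), since CHX left 23.9% in one and 12.2% in the other.

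Seen from the other side, the comparison with WT in the presence of CHX had more of the 10 genes past the test than the one without, in fits of different libraries. In Nrde2-KO with CHX 9 rose and 0 fell (all but Bax), where 12.5% of 15476 genes rose and 15.4% fell, with a median of 1.32 beside 0.0095 over all genes. In Ccdc174-dTAG with CHX 1 rose and 1 fell (Sesn2 and Pmaip1), where 3.19% of genes rose and 5.87% fell, and without any one of the 4 libraries the count was 0. Both comparisons lay within the same experiments as those without CHX and used other libraries. Summed pluripotency markers were lower with CHX (2725 to 3615 CPM) than without it in the same experiments (4271 to 5452). Of these 8 markers, 4 to 7 fell with CHX in each of the 4 states, and 1, Sox2, rose in each. Over all genes 22.4 to 24.1% fell and 25.1 to 26.3% rose. The part of these markers in the differences of the 10 genes was not tested.

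**Figure D4:**
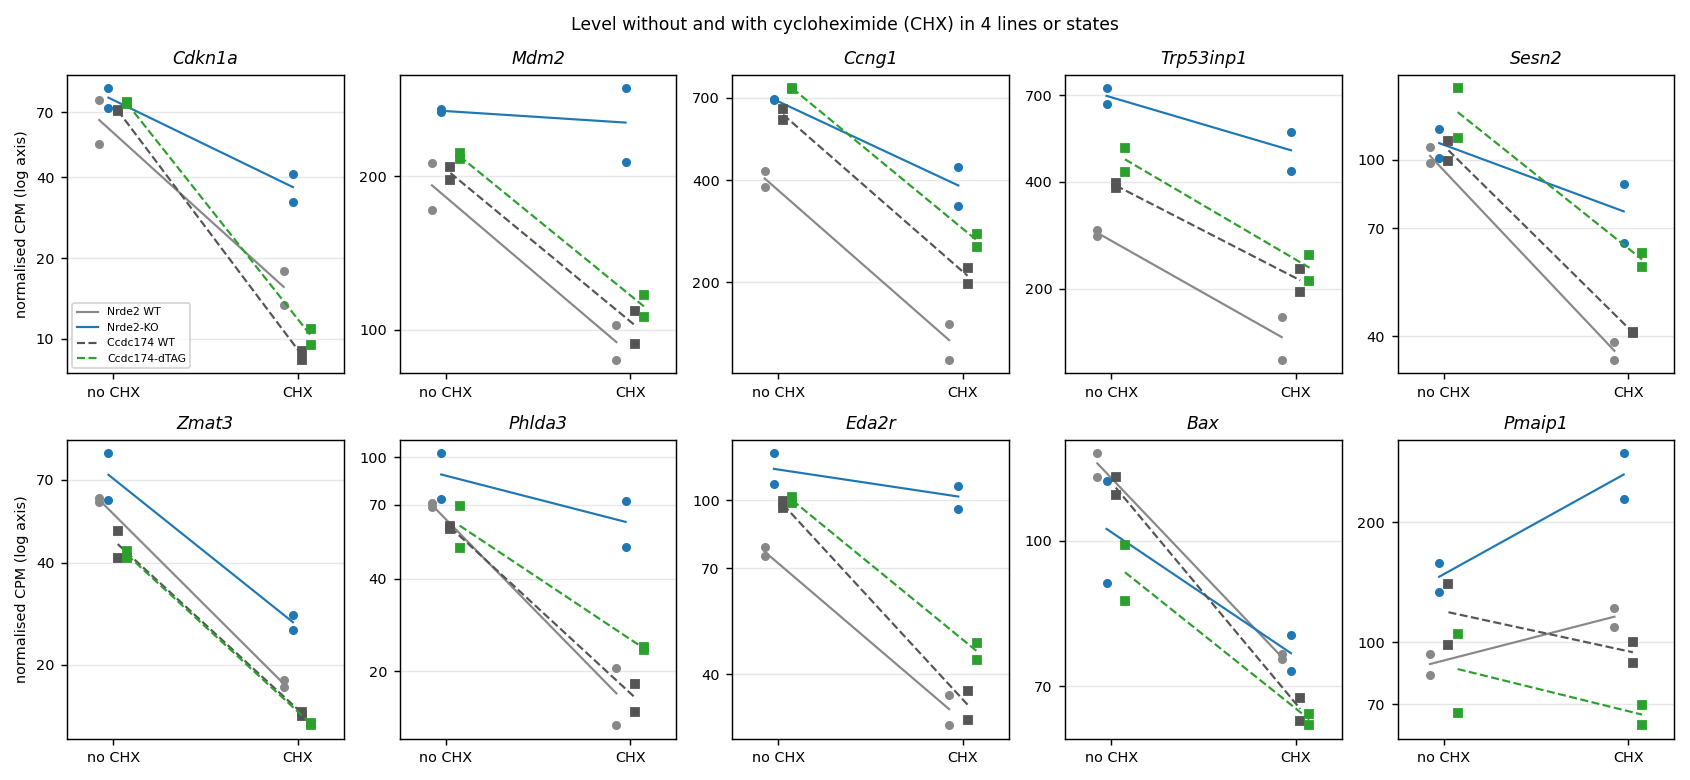
Level without and with CHX in normalised CPM (log axis) for each gene, with points for libraries and lines joining group means: Nrde2 WT and Nrde2-KO solid, Ccdc174 WT and Ccdc174-dTAG dashed. The Nrde2-KO line goes down less than the Nrde2 WT line in 9 panels, and for Pmaip1 both go up.

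Ribo-seq counts fragments protected by ribosomes and so follows the amount of a message being translated. In Nrde2-KO, 7 of the 10 genes rose and 1 fell, where 11.0% of 13857 genes rose and 14.2% fell, and the median was 0.74 beside 0.0029 over all genes. On CPM as deposited the share of called genes that were higher moved from 43.7 to 69.1% and the median of all genes to 0.15. Cdkn1a, which did not pass the test in RNA-seq, had 47.2 and 42.5 CPM in WT and 76.7 and 70.5 in Nrde2-KO, a rise of 0.71 (SE 0.09, adjusted p = 5.7e-06). Mdm2 went from 54.2 and 50.4 CPM to 96.9 and 95.9, a rise of 0.88 (SE 0.09, adjusted p = 1.5e-07). Ccng1 went from 77.1 and 65.7 to 118 and 125 (0.77), Trp53inp1 from 69.4 and 62.9 to 119 and 133 (0.93), and Sesn2 from 42.2 and 48.8 to 69.8 and 67.3 (0.59), all rises.

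Phlda3 showed the largest rise in Ribo-seq, from 23.8 and 20.3 CPM to 43.5 and 45.6, 1.01 on the log2 scale (SE 0.11, adjusted p = 6.8e-07). Eda2r rose by 0.92 (SE 0.11, adjusted p = 2e-06), from 21.1 and 19.5 CPM to 40.1 and 37.3. Zmat3 was at 52.4 and 44.0 CPM in WT and 47.8 and 45.9 in Nrde2-KO, which overlap (−0.04, adjusted p = 0.82). Bax fell by 0.37 (SE 0.08, adjusted p = 0.0019), from 92.3 and 90.8 CPM to 74.0 and 68.2, the only fall of the 10 genes. That fall was lost in DESeq2, with CPM as deposited, with no filter and without Nrde2-KO replicate 2 (0.00022 to 0.3 over 12 alternatives). Pmaip1, with 14.2 and 10.2 CPM against 15.0 and 15.3, did not pass (0.33, SE 0.16, adjusted p = 0.13). Among markers of other cells in Ribo-seq, the 6 of fibroblasts summed to 12.4 to 14.7 CPM in Nrde2-KO against 6.89 to 7.18 in WT (1 of 2 tested rose, Col1a1, Dcn at 0 in both). Primitive endoderm markers summed to 12.1 to 14 CPM against 3.99 to 4.94 (2 of 4 tested rose, Foxa2 at 0 in WT) and mesoderm markers to 17.7 to 21.5 against 9.62 to 9.97 (1 of 3 tested rose, Mesp1 at 0 in both). Pluripotency markers summed to 2167 to 2228 CPM against 2737 to 2754 (of 8 tested, 2 fell and 1, Klf4, rose). Neural markers, at 48.4 CPM in the lower library, were below WT (67.8 to 79.4) in both (1 of 3 tested fell). The part of all these markers in the differences of the 10 genes was not tested.

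Ribo-seq and RNA-seq effects of the first experiment were compared in one model. By limma 0 of 10 differences passed, where 5.19% of 14700 genes differed. Among the 10, 4 had an unadjusted p below 0.05, edgeR called 0 and DESeq2 1. The largest was that of Cdkn1a, 0.66 higher in Ribo-seq (SE 0.17, adjusted p = 0.02), which passed in DESeq2 (0.0095) and without WT RNA-seq replicate 2 (0.0058). Pmaip1 was 0.63 lower (−0.63, SE 0.21, adjusted p = 0.064), Eda2r 0.49 higher (adjusted p = 0.038) and Trp53inp1 lower (−0.41, adjusted p = 0.04). On CPM as deposited the share of higher values among the genes that differed moved from 65.1 to 90.4%.

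**Figure D5:**
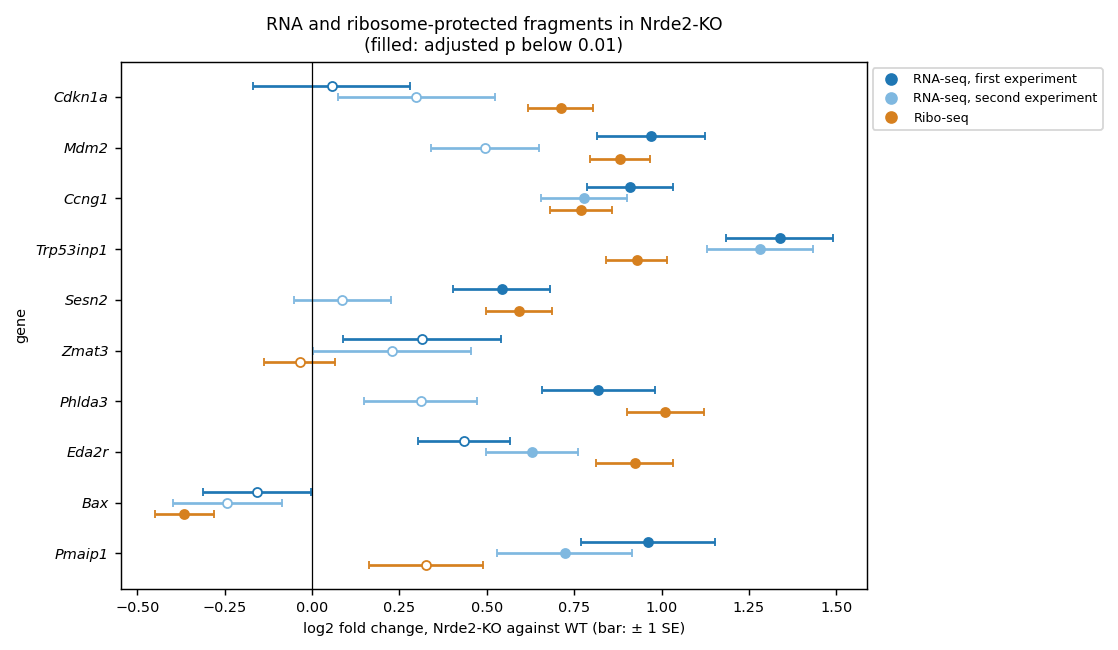
Log2 fold change of Nrde2-KO against WT for each gene in the first and second RNA-seq experiments and in Ribo-seq, with bars of 1 SE (filled: adjusted p below 0.01). The 3 points of Ccng1 lie close together, and for Cdkn1a the Ribo-seq point (0.71) lies above both RNA-seq points (0.06 and 0.30).

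p53 itself and its regulators come next. Trp53 was at 104 and 105 CPM in WT and 90.4 and 79.9 in Nrde2-KO (−0.29, adjusted p = 0.073), and it fell in the second experiment, from 178 and 179 CPM to 108 and 131 (−0.58, SE 0.12, adjusted p = 0.0014). In Ribo-seq it fell from 266 and 302 CPM to 177 and 156 (−0.77, SE 0.08, adjusted p = 7.1e-07). In Mtrex-KO it was at 163 and 173 CPM against 145 and 118 (0.36, adjusted p = 0.014). So Trp53 reads were lower or not past the test in groups in which several of the 10 genes rose. Of 12 tested genes in a list of p53 and its kinases, ligases and relatives, 3 rose and 1 fell in Nrde2-KO, 1 rose and 1 fell in the second experiment, and 3 rose and 2 fell in Mtrex-KO. Over all genes 7.64% rose and 10.6% fell, 7.44% and 11.3%, and 28.5% and 27.4%, so the counts in the second experiment and Mtrex-KO lay near or below the background. The largest rise was that of Trp73, a p53 relative, from 2.11 to 7.99 CPM in Nrde2-KO and from 3.28 to 19.5 in Mtrex-KO, whereas the checkpoint kinase Chek1 fell in Mtrex-KO from 102 to 45.5. In Nrde2-KO with CHX, 5 of 13 tested genes of this list rose against WT and 1 fell, where 12.5% of all genes rose and 15.4% fell. The 1 that fell was Trp53, at 95.3 and 101 CPM against 111 and 135 in WT. Mdm4, the partner of MDM2, rose in Nrde2-KO with CHX from 122 to 223 CPM. With CHX, Trp53 fell in Nrde2 WT (−0.54, adjusted p = 0.00081).

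A further list of other p53 targets had 33 tested genes. In Mtrex-KO 22 rose and 4 fell, with a median of 0.98, in Nrde2-KO 8 rose and 2 fell (0.30), in the second experiment 3 rose and 3 fell (0.12), and in Nrde2-KO with CHX 19 rose and 2 fell (0.58). Medians of all genes were −0.0017, 0.0047, 0.0056 and 0.0095, and the shares of all genes that rose were 28.5%, 7.64%, 7.44% and 12.5%, so the 3 rises of the second experiment lay near the background. Perp, a desmosome protein linked to death, went from 6.59 to 375 CPM in Mtrex-KO, and the kinase Plk2 from 44.7 to 582 there and from 40.7 to 130 in Nrde2-KO. Ddb2, a damage-recognition protein, fell in both Nrde2-KO experiments and in Mtrex-KO (12.0 to 4.76 CPM). In Nrde2Δ200 3 rose and 0 fell (3.22% and 4.27% of all genes). Ddb2 was the 1 that fell in Ccdc174-dTAG. In Ribo-seq of Nrde2-KO 13 of 34 rose and 3 fell (11.0% and 14.2% of all genes). CHX lowered 20 of 33 and raised 4 in Nrde2 WT and lowered 11 and raised 7 in Nrde2-KO. Over all genes 22.4% fell and 25.1% rose in Nrde2 WT and 22.5% and 26.3% in Nrde2-KO, so the 7 rises lay near the background. Gadd45a, another arrest gene, rose with CHX in Nrde2 WT from 8.88 to 25.7 CPM.

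Of 10 cell-cycle genes that p53 represses through the DREAM complex, 10 fell in Mtrex-KO, where 27.4% of all genes fell, with a median of −1.39 (Ccnb2, a mitotic cyclin, went from 183 to 45.9 CPM). In Nrde2-KO 3 fell, in the second experiment 1, in Nrde2-KO with CHX 2, and in Ribo-seq 6, beside 10.6%, 11.3%, 15.4% and 14.2% of all genes. CHX itself lowered 7 to 9 of the 10 in each of the 4 states and raised 0 or 1, with medians from −0.69 to −0.41. Over all genes 22.4 to 24.1% fell with CHX. Genes that mark other cell states also moved in the Nrde2-KO and Mtrex-KO groups. The 7 2-cell-like markers summed to 2.40 to 2.89 CPM in WT, 22.7 to 33.9 in Nrde2-KO, 14.4 to 18.3 in Nrde2Δ200 and 1.89 to 3.37 in Nrde2-D174R, and to 88.8 and 242 in Mtrex-KO against 4.25 and 13.5. Of the 6 tested, 6 rose in Mtrex-KO, Nrde2-KO and the second experiment, and 3 in Nrde2Δ200. Trophectoderm markers summed to 447 to 487 CPM in Mtrex-KO against 56.1 to 93.6 in WT (4 of 5 tested rose). In Nrde2-KO they summed to 66.1 to 71.4 CPM against 76.2 to 85.4, although 1 of 5 tested rose (Cdx2) and 0 fell. Primitive endoderm markers summed to 21.7 to 24.2 CPM in Nrde2-KO against 13.6 in WT (2 of 5 tested rose), 16.4 to 19.7 against 9.16 to 10.8 in the second experiment (2 of 5) and 18.8 to 19.5 against 11.2 to 11.9 in Mtrex-KO (3 of 5). Pluripotency markers summed to 4043 to 4306 CPM in Nrde2-KO against 5131 to 5430 (2 of 8 fell), 4643 to 4828 against 5386 to 5452 in the second experiment (1 of 8) and 4302 to 5091 against 5746 to 5893 in Mtrex-KO (4 of 8). The 4 mesoderm markers summed to 7.01 to 8.88 CPM in Nrde2-KO against 3.65 to 4.88 in WT (0 of 3 tested rose). In Mtrex-KO they summed to 2.29 to 4.66 against 5.11 to 5.98 (2 of 3 tested fell). The 4 neural markers summed to 86.5 to 87.3 CPM in Nrde2-KO against 104 to 112 (1 of 3 tested fell, Nes). In Mtrex-KO they summed to 151 to 163 against 121 to 124, where 1 of 3 tested rose (Nes) and 1 fell (Tubb3). Immediate early genes summed to 311 to 368 CPM in Mtrex-KO against 140 in WT (5 of 8 tested rose and 1 fell). Their part in the differences of the 10 genes was not tested.

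Immediate early genes and transcripts known to rise when translation is blocked were set beside the CHX effects. Both lists were chosen with earlier results of these data known, so they are not an independent check on CHX. Of 9 tested immediate early genes, 5 to 7 rose with CHX in each of the 4 states and 0 or 1 fell, and Egr1 led in each. In Ccdc174 WT 1 of the 7 transcripts of the second list, Gas5, fell. Of these 7 transcripts, 6 rose in each state, with medians of 1.06 to 1.42. Their median was 1.28 in Nrde2 WT and 1.42 in Nrde2-KO. The median of the 7 fitted differences between these effects was nevertheless −0.21, of the opposite sign. Of the 7, 0 passed the test by limma and 2 had an unadjusted p below 0.05. For the 9 tested immediate early genes the median of such differences was 0.55, and 5 had an unadjusted p below 0.05. Of these 9, 1 passed the test (Dusp1, positive), where 0.515% of all genes differed. In Nrde2-KO with CHX, 6 of 10 immediate early genes rose against WT and 1 fell, where 12.5% of all genes rose and 15.4% fell. The part of either list in the differences of the 10 genes was not tested.

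Over the 14 RNA-seq groups, the patterns of the 10 genes were compared by Pearson's r of log2 group means, as a description, since the groups share CHX, lines and WT libraries. Phlda3 followed the mean of the other 9 most closely (r = 0.979), then Sesn2 (0.938) and Ccng1 (0.921). Bax (0.674) and Pmaip1 (0.324) followed it least, and Cdkn1a and Pmaip1 were unrelated (r = −0.056). The single closest pair was Ccng1 and Sesn2 (0.96). Among 13446 other genes with a mean of 1 CPM or more, those most like the mean profile of the 10 were Susd6 (r = 0.982), Erbb3 (0.96) and Rabgef1 (0.957). Those most like Cdkn1a alone, among 13455, were Slc38a2 (0.986), Fbxo11 (0.981) and Bach1 (0.98).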

How the data were processed

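RNA-seq (28 libraries) and Ribo-seq (4) of mESCs were used, and the BCLIP-seq samples were not analysed here. For RNA-seq, the authors aligned 50-nt single-end stranded reads to mm10 with STAR (2.7.3a in the submitters' processing notes), counted unique reads of the correct strand per GENCODE M23 gene with featureCounts, and deposited CPM. Ribo-seq reads were trimmed and collapsed first. The authors' CPM carry no scaling between libraries. Divided by the value of 1 read, 100% of CPM came out whole (tolerance 0.1), which gave reads for edgeR 4.0.16 and DESeq2 1.42.0, run as alternatives. edgeR and DESeq2 call counts are given beside the results.

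Genes were named by GENCODE M21 (55154 of 55335 identifiers, 181 not in it). CPM were divided by median-of-ratios factors, 0.25 was added, and log2 values were fitted with limma 3.58.1 (R 4.3.3; trend, empirical Bayes), so fold changes of low genes are understated. Genes needed a mean of 0.5 CPM. The fits held 20 RNA-seq libraries without CHX, 8 with CHX, 16 for CHX effects, 4 of Ribo-seq, and 8 for Ribo-seq against RNA-seq. Groups of a fit share 1 spread. "Rose" and "fell" mean Benjamini-Hochberg adjusted p below 0.01 over all genes tested, and 17 comparisons were made. In the text "CPM" is the scaled value unless "as deposited". Per-kilobase levels used the annotated exon length. The limma steps were tested on simulated data. Alternatives were 0.1 or 1 added, no filter or 1 CPM, CPM as deposited, the compared libraries only, a replicate block, the count tools, a log2 fold change past 1 as a further limit, the second experiment's RNA-seq, and leaving out each library.

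All 10 genes are named, and from other lists the 2 largest rises and 2 largest falls per comparison at most. The 10 genes and all lists were chosen with earlier results of these data known.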

Additional observations from a re-analysis of the deposited data

Results flagged for a closer look

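The CHX effect on Eda2r differed between Nrde2-KO and Nrde2 WT, by 0.98 on the log2 scale in a test of the difference itself (SE 0.14, adjusted p = 0.0031). CHX left 86.1% of its level in Nrde2-KO and 43.6% in WT, with 2 libraries in each of the 4 groups. Over 17 alternatives the adjusted p lay between 6e-07 and 0.03, and 7 of them missed the threshold.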

How the results depend on the processing

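Of 2360 alternative values for the 170 effects of single genes (10 genes in 17 comparisons), 2204 kept their direction and their side of the threshold, 63 lost and 43 gained significance, 50 changed sign with no call in either setting, and 0 called effects changed sign. Counts of the 10 genes past the test moved by over 1.5 times as follows. With a log2 fold change past 1 also required, they were 1 in Nrde2-KO, in the second experiment and in Ribo-seq, 2 for CHX in Nrde2-KO, and 0 in Nrde2Δ200, in Ccdc174-dTAG with CHX and for the CHX difference of Nrde2-KO and WT. With no filter on low values, there were 0 in Nrde2Δ200, in Ccdc174-dTAG with CHX and for that CHX difference, and 4 for CHX in Nrde2-KO. With CPM as deposited, there were 0 in Nrde2Δ200, 1 in Ccdc174-dTAG with CHX and 4 for CHX in Nrde2-KO. With only the compared libraries, there were 5 in Nrde2Δ200, 1 in Nrde2-D174R and 0 for the CHX difference. DESeq2 called 3 in Nrde2Δ200, 6 for the CHX difference and 1 for Ribo-seq against RNA-seq. Leaving out 1 library gave 3 to 5 in Nrde2-KO, 0 to 1 in Nrde2Δ200, 2 to 3 in the second experiment, 0 in Ccdc174-dTAG with CHX, 4 to 6 for CHX in Nrde2-KO, 0 to 3 for the CHX difference and 0 to 1 for Ribo-seq against RNA-seq. The group left with 1 library was assumed to vary like the others. The cause of these changes was not tested.

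The deviations of same-numbered libraries correlated by −0.035 to 0.271 between groups of the first Nrde2 experiment, by 0.412 for Mtrex, by 0.119 to 0.366 within the second Nrde2 experiment, by 0.184 to 0.376 within that of Ccdc174 and by −0.026 in Ribo-seq. No label ties a number to a shared culture or day and a group holds only 2 numbers, so the numbers were not taken as pairs. With the replicate number as a block, 3 genes were called in Nrde2Δ200, 1 in Nrde2-D174R, 1 in Ccdc174-dTAG, 5 in Ccdc174-dTAG with CHX, 6 for the CHX difference of Nrde2-KO and WT (Cdkn1a, Mdm2, Ccng1, Sesn2, Phlda3 and Eda2r), 1 for that of the 2 WT states and 1 for Ribo-seq against RNA-seq, and the other counts stayed within 1.5 times.

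With 2 libraries a group, precision is set by the spread between libraries. Effects of CHX, 4OHT and dTAG-13 on growth or cell state cannot be told apart from those on the genes. The p53 element search with differing letters was chosen after the exact search.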
